A study of Mus musculus with 17 samples.

Results

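Interferon-stimulated genes are the genes that cells switch on after an interferon binds its receptor. A set of 39 of them was followed here in cultures of 17 mice that are labelled as lung fibroblasts. The set was chosen by gene symbol from general knowledge of the response, with earlier results of these data known. It holds transcription factors, RNA and DNA sensors, the Ifit and Oas families, the Isg15 system, Mx proteins and other antiviral effectors, IRG GTPases and GBP GTPases. All 39 genes exceeded 10 CPM (counts per 1000000 counts of the library) in at least 2 libraries, and they made up 39 of the 10481 genes tested out of 55421 in the deposited table. Every mouse carried floxed Ephb4 alleles and the Col1a2-CreERT2 transgene (Ephb4f/f; Col1a2-CreERT2), so the recombinase was driven by the promoter of a collagen gene and, once induced, acts in Col1a2-expressing cells. Mice given corn oil at 4 weeks of age served as Ephb4 controls, and mice given 4-hydroxytamoxifen at that age (1 mg per day for 5 days) were the conditional knockouts (Ephb4 CKO). PBS or bleomycin (1.2 U/kg), a drug that injures the lung and leads to fibrosis, was instilled at 6 weeks, and cells were taken 14 days later and passaged 1 time. There were 4 control PBS, 4 control bleomycin, 5 CKO PBS and 4 CKO bleomycin mice. Each library is 1 mouse, and the mouse numbers used here only name the libraries within a group.

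Type I interferons (interferon beta and the interferon alpha family) signal through the receptor Ifnar1 and Ifnar2, type II interferon (interferon gamma) through Ifngr1 and Ifngr2. Type I signaling acts through a complex that holds Stat2 and Irf9 and binds interferon-stimulated response elements in promoters, and type II signaling acts mainly at gamma-activated sites. Most antiviral genes answer to type I interferon, while GBP and IRG GTPases are strong targets of interferon gamma. Fibroblasts and macrophages both respond to interferons.

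The libraries held between 66540022 and 120554468 counts. The labelled cell type was checked against marker lists. The summed CPM of 14 fibroblast markers ran from 6119 to 13425 in the control bleomycin mice but from 47.2 to 8017 in control PBS, from 91.6 to 2382 in CKO PBS and from 78.7 to 1988 in CKO bleomycin mice. The summed CPM of 19 macrophage markers ran from 1227 to 21467 in control bleomycin, from 10504 to 46201 in control PBS, from 22598 to 44031 in CKO PBS and from 24318 to 44282 in CKO bleomycin mice. Thus in every control PBS, CKO PBS and CKO bleomycin library the macrophage sum was above the fibroblast sum, although the label is fibroblast. No macrophage marker was at 0 in any library, and the fibroblast markers Fbln1, Tcf21 and Postn were at 0 counts in 2, 3 and 1 libraries. In cultures of mixed make-up, fewer cells of a type and less RNA per cell cannot be told apart. Ephb4 itself ranged from 2.35 to 33.9 CPM in control PBS, 4.06 to 23.9 in CKO PBS, 13.3 to 66.0 in control bleomycin and 5.00 to 14.2 in CKO bleomycin mice, so the genotypes overlapped on this gene. In 3 libraries (control bleomycin mouse 2 and CKO bleomycin mice 1 and 2) the sex-linked genes went against the recorded sex.

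The promoters of the set are shown first because 2 short motifs are frequent in them. RefSeq promoter windows (250 bases before to 50 after a start, GRCm38.p6) were given for 31 of the 39 genes. The core of the interferon-stimulated response element, searched on both strands as GAAA, any 2 bases and GAAA again, lay in the windows of 19 of 31 genes (61.3%), against 4.07% of 8029 tested genes and 3.44% of all 32851 windows. The gamma-activated site, searched as TTCNNNGAA, which reads the same on both strands, lay in 9 of 31 (29%), against 8.22% of tested genes and 8.3% of all windows. Below, 170 bases directly upstream of the start are printed for 6 members of different families, chosen because they hold a match and no annotated exon, with every match to either motif in capitals. They lie at chr4:156200819-156200988 (Isg15, minus strand), chr19:34583359-34583528 (Ifit3, plus), chr5:120907526-120907695 (Oas1a, minus), chr12:26456453-26456622 (Rsad2, minus), chr11:58199386-58199555 (Igtp, plus) and chr3:142530166-142530335 (Gbp7, plus).
Isg15: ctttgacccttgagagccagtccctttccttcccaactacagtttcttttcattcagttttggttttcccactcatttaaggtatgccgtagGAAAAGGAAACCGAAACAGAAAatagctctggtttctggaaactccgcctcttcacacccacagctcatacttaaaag
Ifit3: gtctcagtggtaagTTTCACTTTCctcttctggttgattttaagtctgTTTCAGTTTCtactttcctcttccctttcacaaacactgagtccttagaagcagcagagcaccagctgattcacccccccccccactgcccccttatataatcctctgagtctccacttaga
Oas1a: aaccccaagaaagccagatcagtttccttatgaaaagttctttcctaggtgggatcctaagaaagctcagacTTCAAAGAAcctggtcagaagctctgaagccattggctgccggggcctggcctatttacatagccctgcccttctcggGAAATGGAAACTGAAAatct
Rsad2: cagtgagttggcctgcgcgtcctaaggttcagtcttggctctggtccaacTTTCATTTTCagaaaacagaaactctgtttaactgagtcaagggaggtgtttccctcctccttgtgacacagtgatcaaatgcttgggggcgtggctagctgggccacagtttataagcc
Igtp: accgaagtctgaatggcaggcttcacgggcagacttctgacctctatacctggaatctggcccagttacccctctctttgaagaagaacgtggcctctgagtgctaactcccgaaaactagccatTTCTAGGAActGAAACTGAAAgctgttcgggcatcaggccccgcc
Gbp7: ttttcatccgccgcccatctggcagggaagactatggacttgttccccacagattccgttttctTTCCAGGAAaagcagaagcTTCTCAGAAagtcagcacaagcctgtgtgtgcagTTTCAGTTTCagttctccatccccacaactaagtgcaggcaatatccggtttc
Isg15 carried 3 overlapping response element matches in a row, Ifit3 2 separate ones and Rsad2 1. Oas1a held 2 overlapping response element matches near its start and 1 TTCNNNGAA match farther upstream. Igtp and Gbp7, GTPase genes of the interferon gamma type, held 1 response element match each, with 1 TTCNNNGAA match in Igtp and 2 in Gbp7. Such a match describes letters in a window and is not evidence of binding.

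The set moved as a block from mouse to mouse, and the differences between mice of 1 group were as large as those between groups. Across the 17 libraries, each gene's rank correlation (Spearman rho) with the mean of the other 38 had a median of 0.956, from 0.512 for Ifi44 to 0.995 for Xaf1. With each group's mean removed the median was 0.914. These coefficients are descriptions, since all genes of a library share its depth and its cells. The mean log2 CPM of the 39 genes was 4.22 ± 1.31 in control PBS (SD, n = 4), 3.13 ± 1.13 in control bleomycin (n = 4), 5.73 ± 1.80 in CKO PBS (n = 5) and 5.08 ± 0.82 in CKO bleomycin mice (n = 4). CKO PBS mouse 5 was the highest of the 17 libraries for 31 genes and CKO PBS mouse 1 for the other 8. Control bleomycin mouse 1 was the lowest for 31. It was also the lowest on macrophage markers, with a mean log2 CPM of 3.72 against 6.84 or more in the other 16 libraries.

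**Figure D1:**
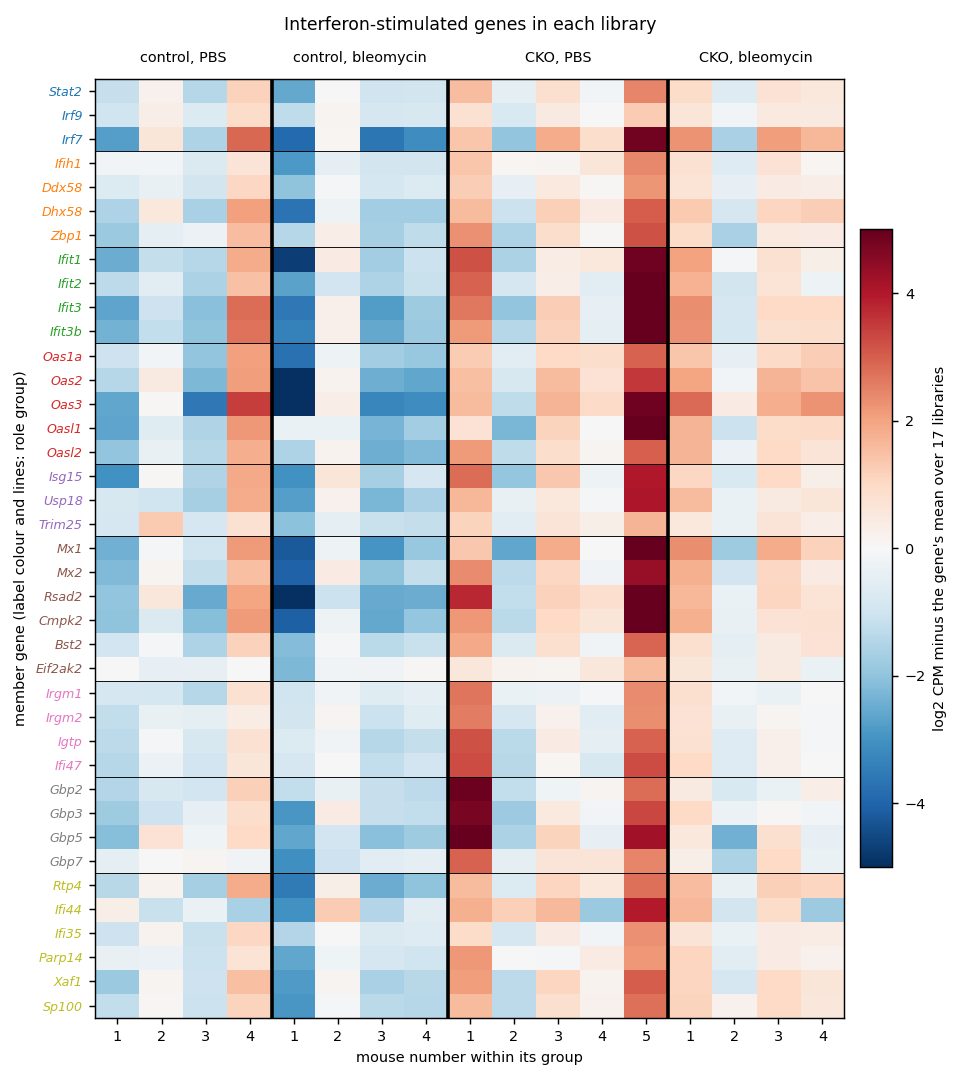
Each row is a member gene and each column a library. Colour gives log2 CPM minus the gene's own mean over 17 libraries, with colours saturated beyond 5 in either direction. CKO PBS mice 1 and 5 are the reddest columns, with the GBP genes deepest in mouse 1 and the Ifit, Oas and Mx genes deepest in mouse 5, and control bleomycin mouse 1 is the bluest.

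No gene of the table passed an adjusted p of 0.05 in any of the 5 comparisons when edgeR quasi-likelihood p-values were adjusted by the Benjamini-Hochberg method, so no member did. The smallest adjusted p of a member was 0.218, for Trim25 in CKO versus control mice after bleomycin. At an unadjusted p under 0.05 the whole table held 1494 genes for bleomycin versus PBS in control mice, 209 for CKO versus control mice after PBS, 2119 for CKO versus control mice after bleomycin, 101 for bleomycin versus PBS in CKO mice and 363 for the interaction. DESeq2 without a batch term called 166 (1.6%), 1 (0.00962%), 399 (3.84%), 1 (0.00962%) and 0 of 10392 genes in the same order, none of them a member. Fold changes are therefore given below with their standard error (SE) as measured differences that did not pass the correction, and higher or lower describes the values.

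After PBS, all 39 members were higher in Ephb4 CKO than in control mice, against 46.4% of all tested genes. Their median log2 fold change was 1.72, against -0.02 over all genes. An unadjusted p under 0.05 was reached by 17 members (43.6%, against 1.43% of all genes higher at that p), among them all 4 GBP and all 4 IRG GTPases, but every adjusted p was 1.00. Of these, Gbp5 was above 10 CPM in CKO PBS mice 1 and 5 alone. It passed the filter through the group where it was high, so its place in the count is only a description. Only Eif2ak2 did not overlap between these groups (2.56% of members, against 0.0286% of genes). The difference depended on CKO PBS mice 1 and 5. Without both, 17 members were higher and 22 lower, the median was -0.06 and no member reached an unadjusted p under 0.05. The mean log2 CPM of the other 3 CKO PBS mice was 4.56 ± 0.91 (SD), beside 4.22 ± 1.31 in the control PBS mice. Without mouse 5 alone the median was 0.66, with 36 members higher and 6 at that p, and without mouse 1 alone it was 1.45 with 7. Leaving out control PBS mouse 4, the highest control, gave 2.60 with 35 members at that p, leaving out control PBS mouse 1, 2 or 3 gave 7, 10 or 9 members, and leaving out CKO PBS mouse 2 gave 26.

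After bleomycin, all 39 members were again higher in CKO than in control mice, against 50.7% of tested genes, with a median log2 fold change of 1.66 against 0.01 over all genes. At an unadjusted p under 0.05 there were 11 members (28.2%), against 11% of all genes higher at that p. The groups did not overlap for Ifit2, Oas3, Rsad2, Sp100 and Trim25 (12.8% of members), and 11% of all genes were higher without overlap, a share near that of the members. With any single mouse left out the median ran from 1.30 to 2.14, and all 39 were higher each time except without CKO bleomycin mouse 1, when 38 were. The count at an unadjusted p under 0.05 ran from 0, without control bleomycin mouse 1, to 20, without control bleomycin mouse 2. It was 2 without CKO bleomycin mouse 1 or without control bleomycin mouse 4, 3 without control bleomycin mouse 3, 5 without CKO bleomycin mouse 3, 6 without CKO bleomycin mouse 4 and 19 without CKO PBS mouse 5. DESeq2 with the sorted run of columns as a covariate called 387 of 10215 genes here (3.79%) and 3 of the 39 members (7.69%). They were Irf7 (log2 fold change 3.79, adjusted p = 0.0451), Oas3 (4.18, adjusted p = 0.0467) and Oas2 (3.20, adjusted p = 0.0474).

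The make-up of the cultures differed between those same groups. Fibroblast marker means were 8.08 ± 0.40 (SD) on the log2 CPM scale in control bleomycin and 3.68 ± 2.61 in CKO bleomycin mice, and macrophage marker means were 6.79 ± 2.05 and 8.44 ± 0.27. With the macrophage mean as a covariate the median of the members after bleomycin was 0.45, with 36 higher, 3 lower and none at an unadjusted p under 0.05. With the fibroblast mean as a covariate it was 0.86, with all 39 higher and none at that p. Over the 17 libraries the rank correlation of a member with the macrophage mean had a median of 0.806 and with the fibroblast mean a median of -0.47, as descriptions over libraries that also differ in group. Whether the culture make-up has a part in the difference was not tested beyond these values.

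Within control mice, 38 of 39 members were lower after bleomycin than after PBS, against 55.5% of tested genes, with a median log2 fold change of -1.17 against -0.06. An unadjusted p under 0.05 was reached by Trim25, Dhx58 and Oas1a (7.69% of members, against 7.98% of all genes lower at that p, a share near the background). The exception in direction was Ifi44 (0.37, SE 1.04). DESeq2 with the column run called Irf7 here (-3.87, adjusted p = 0.0493), which is 2.56% of members against 2.26% of all genes (231 of 10215), a share near the background. Control PBS mouse 4 weighed on this difference, and without it the median was -0.18 with 12 members higher. Without control bleomycin mouse 2 it was -1.79 with 12 members at an unadjusted p under 0.05, and without control bleomycin mouse 1 it was -0.77 with 1. Within CKO mice, all 39 were lower after bleomycin, against 55.8% of genes, with a median of -1.33. There 8 members (20.5%, against 0.716% of genes lower) reached an unadjusted p under 0.05, namely Gbp2, Gbp3, Gbp5, Gbp7, Igtp, Ifit2, Rsad2 and Cmpk2, all with an adjusted p of 1.00. Gbp5 is counted here although it passed the filter only through the CKO PBS group. Without CKO PBS mice 1 and 5 the direction within CKO mice reversed to 35 members higher and a median of 0.47. Without mouse 5 alone the median was -0.20 with 13 members higher and 3 at that p, without mouse 1 alone it was -1.12 with 3, and without CKO bleomycin mouse 2, 3 or 4 there were 2, 3 or 2 at that p. The interaction of genotype and bleomycin had 15 members above 0 and 24 below, against 49.7% of genes above 0, a median of -0.31 and no member at an unadjusted p under 0.05, so the genotype difference was not shown to change with bleomycin. Without the same pair of mice, 38 members had an interaction above 0, with a median of 1.62 and 2 at an unadjusted p under 0.05. The sign of the interaction median also turned without CKO PBS mouse 5 (0.77), without control bleomycin mouse 2 (0.40), without CKO bleomycin mouse 2 (0.02), without the 3 libraries whose sex-linked genes went against the labels (0.38, 25 above 0), in limma voom (0.52) and with the column run as a covariate (0.27 in edgeR, 0.25 in DESeq2).

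**Figure D2:**
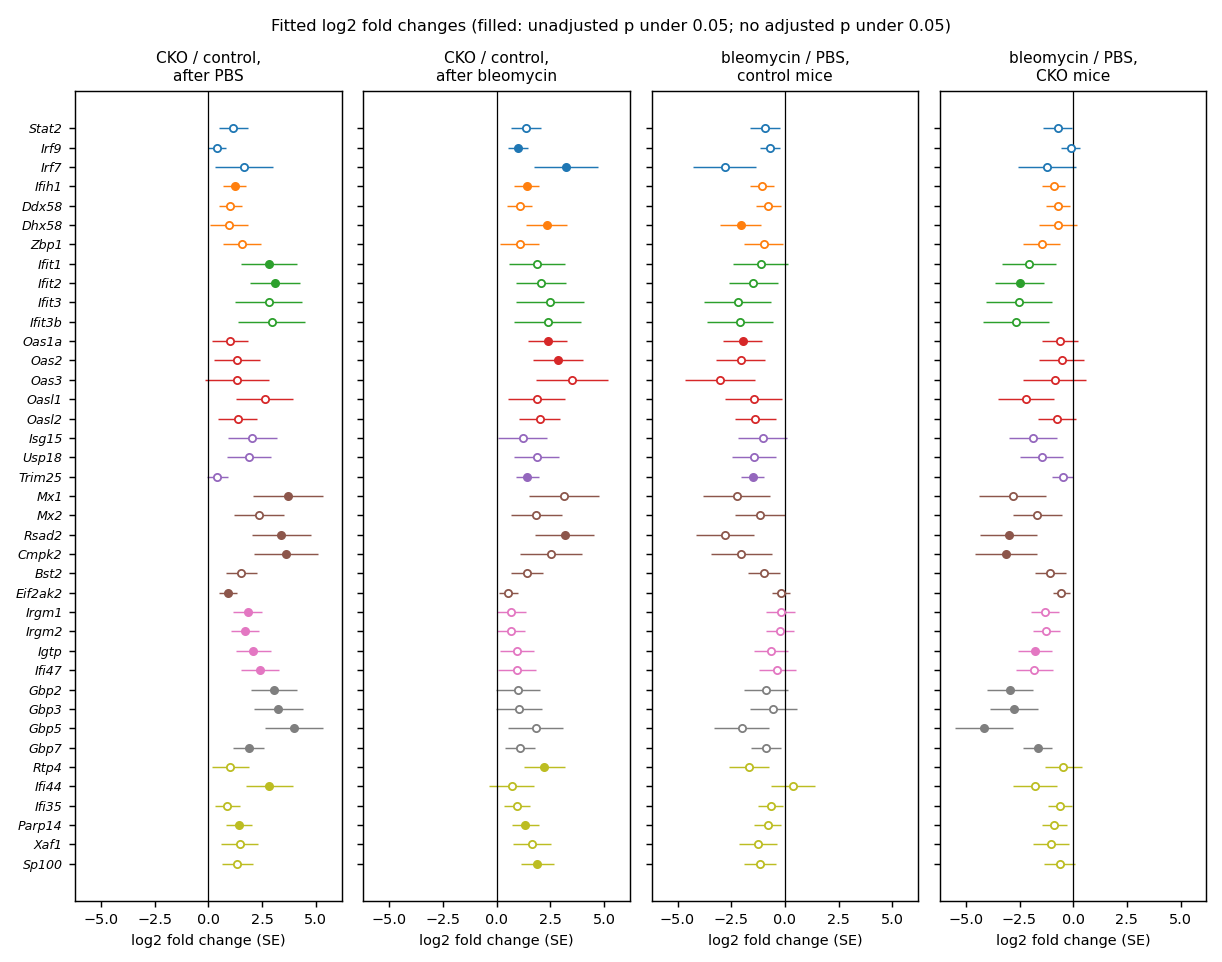
Points are fitted log2 fold changes of the 39 genes with bars of 1 SE, in role order and coloured by role, for 4 comparisons, and filled points have an unadjusted p under 0.05. The 2 genotype panels lie right of 0 for all 39 genes, 17 of them filled after PBS and 11 after bleomycin.

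Splits by batch-like labels were looked at for the same differences. Animal numbers fall into a series that begins with 11 and a series that begins with 12, and the columns of the table form 2 sorted runs of 8 and 9 libraries. After PBS all 39 members were higher in CKO mice within series 11 (median difference of 1.32 in log2 CPM, 3 against 3 mice), within series 12 (2.01, 2 against 1) and within column run 1 (2.64, 2 against 2), and 34 were higher within run 2 (0.43, 3 against 2). After bleomycin the counts were 39 within series 12 (1.49, 2 against 4), 38 within run 1 (1.17, 2 against 2) and 39 within run 2 (2.38, 2 against 2), and series 11 held no control bleomycin mouse. For bleomycin against PBS in control mice, run 1 (0.05, 22 higher) and series 12 (0.10, 21 higher) did not show the lower values that run 2 had (-1.88, 39 lower). For bleomycin against PBS in CKO mice, all 39 were lower within run 1 (-1.27) and series 11 (-0.74), while 17 were higher within run 2 (-0.08) and 15 within series 12 (-0.26). Each of these splits holds 1 of the highest libraries, since CKO PBS mouse 5 is in series 11 and run 1 and CKO PBS mouse 1 in series 12 and run 2, so the within-split values that use CKO PBS mice are not free of them.

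Among the transcription factors, Stat2 and Irf9 belong to the complex that carries the type I signal to promoters, and Irf7 drives interferon alpha transcription and is itself induced. Stat2 stood at 22.3, 56.8, 18.2 and 108 CPM in control PBS mice 1 to 4, at 8.40, 49.5, 24.3 and 26.0 CPM in control bleomycin mice 1 to 4, at 142, 34.5, 85.8, 45.1 and 264 CPM in CKO PBS mice 1 to 5 and at 93.2, 31.6, 80.1 and 70.9 CPM in CKO bleomycin mice 1 to 4. Thus Stat2 was highest in CKO PBS mouse 5 and lowest in control bleomycin mouse 1, and every pair of groups overlapped. Irf9 stood at 24.1, 59.6, 30.0 and 90.9 CPM in control PBS mice 1 to 4, at 19.8, 52.5, 26.6 and 27.8 CPM in control bleomycin mice 1 to 4, at 81.3, 28.3, 65.6, 47.9 and 116 CPM in CKO PBS mice 1 to 5 and at 73.7, 43.6, 67.8 and 65.3 CPM in CKO bleomycin mice 1 to 4. Irf7 was measured at 9.26, 94.8, 21.8 and 459 CPM in control PBS mice 1 to 4, at 4.25, 67.2, 5.08 and 7.20 CPM in control bleomycin mice 1 to 4, at 164, 16.1, 229, 115 and 1781 CPM in CKO PBS mice 1 to 5 and at 299.6, 20.2, 269.8 and 201 CPM in CKO bleomycin mice 1 to 4. Irf7 had the widest range of the 3, with the highest library at 419 times the lowest, and in the CKO bleomycin group 1 mouse stood far below the other 3. The log2 fold change between CKO and control mice after bleomycin was 1.35 for Stat2 (SE 0.70), 0.98 for Irf9 (SE 0.46) and 3.24 for Irf7 (SE 1.50), the last 2 at an unadjusted p under 0.05. After PBS the same contrast gave 1.15 (SE 0.67), 0.41 (SE 0.43) and 1.66 (SE 1.36), none with an unadjusted p under 0.05.

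The sensors of foreign nucleic acid belong to the set. Ddx58 (RIG-I) and Ifih1 (MDA5) detect viral RNA, Dhx58 (LGP2) modulates them, and Zbp1 binds left-handed nucleic acid and can trigger cell death. Ddx58 stood at 59.5, 75.2, 50.6 and 199 CPM in control PBS mice 1 to 4, at 24.0, 90.1, 52.7 and 59.3 CPM in control bleomycin mice 1 to 4, at 228, 73.1, 135, 99.7 and 442 CPM in CKO PBS mice 1 to 5 and at 154, 71.9, 129 and 121 CPM in CKO bleomycin mice 1 to 4. Its level per kilobase of exon, 17.2 CPM on average over the 17 libraries, was the highest of the 4 sensors. Ifih1 was higher in CKO than in control mice after PBS (log2 fold change 1.23, SE 0.54) and after bleomycin (1.39, SE 0.57), each at an unadjusted p under 0.05. Dhx58 was higher in CKO mice after bleomycin (2.32, SE 0.97) and lower after bleomycin than after PBS in control mice (-2.07, SE 0.96). For Ddx58 and Zbp1 the CKO to control log2 fold changes after bleomycin were both 1.07, with SEs of 0.57 and 0.90.

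Ifit proteins bind viral RNA and block its translation. The 4 genes lie in a row on chromosome 19, from 34550694 (Ifit2) to 34650009 (Ifit1), and Ifit3 and Ifit3b are near-identical copies whose counts may have been split between them. Ifit3 stood at 3.38, 10.5, 5.05 and 148 CPM in control PBS mice 1 to 4, at 1.75, 25.3, 3.08 and 6.21 CPM in control bleomycin mice 1 to 4, at 134, 5.48, 49.8, 16.2 and 1246 CPM in CKO PBS mice 1 to 5 and at 107, 11.8, 42.3 and 42.5 CPM in CKO bleomycin mice 1 to 4. CKO PBS mouse 5 stood far above the next library, control PBS mouse 4, and 13 libraries were below 50 CPM. After PBS the CKO to control log2 fold change was 2.83 (SE 1.32) for Ifit1 and 3.10 (SE 1.18) for Ifit2, each at an unadjusted p under 0.05, and 2.80 (SE 1.55) for Ifit3 and 2.94 (SE 1.55) for Ifit3b. After bleomycin the 4 values ran from 1.89 to 2.49, and no Ifit gene reached that p.

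Oas enzymes make the second messenger that switches on an RNA-degrading enzyme, and Oasl1 and Oasl2 are related proteins. Oas1a stood at 27.8, 51.9, 14.9 and 242 CPM in control PBS mice 1 to 4, at 4.29, 48.7, 17.3 and 15.5 CPM in control bleomycin mice 1 to 4, at 137, 40.0, 114, 105 and 447 CPM in CKO PBS mice 1 to 5 and at 151, 43.4, 111 and 136 CPM in CKO bleomycin mice 1 to 4. The 2 lowest libraries were control bleomycin mouse 1 and control PBS mouse 3. Oas1a and Oas2 were higher in CKO than in control mice after bleomycin (log2 fold changes 2.37, SE 0.93, and 2.85, SE 1.18, each at an unadjusted p under 0.05). Oas3 had the largest fitted difference of the set in that contrast (3.50, SE 1.66) and no overlap between the groups, with control mice at 0.268, 31.7, 2.65 and 2.93 CPM and CKO mice at 183, 33.5, 90.1 and 120.0. Its adjusted p was 0.248 by edgeR. In control mice Oas1a was lower after bleomycin than after PBS (-1.97, SE 0.91, at an unadjusted p under 0.05). The Oas1a locus has close paralogs that share sequence with it. Oasl1 and Oasl2 had log2 fold changes of 1.86 and 2.01 in CKO versus control mice after bleomycin (SEs 1.34 and 0.96).

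Isg15 is a small ubiquitin-like protein that is attached to other proteins, Usp18 removes it and restrains the type I receptor, and Trim25 is a ubiquitin ligase that acts on RIG-I. Isg15 stood at 1.13, 9.70, 3.29 and 34.7 CPM in control PBS mice 1 to 4, at 1.12, 14.5, 2.99 and 5.25 CPM in control bleomycin mice 1 to 4, at 64.6, 2.46, 24.2, 7.99 and 153 CPM in CKO PBS mice 1 to 5 and at 19.4, 5.53, 18.6 and 11.5 CPM in CKO bleomycin mice 1 to 4. Isg15 was at or below 5.53 CPM in 7 of the 17 libraries, at 64.6 and 153 in CKO PBS mice 1 and 5, and no pair of groups separated. Trim25 was found at 35.1, 156, 35.3 and 108 CPM in control PBS mice 1 to 4, at 15.3, 45.5, 29.0 and 27.8 CPM in control bleomycin mice 1 to 4, at 135, 44.0, 98.6, 76.7 and 205 CPM in CKO PBS mice 1 to 5 and at 90.9, 49.8, 97.2 and 79.6 CPM in CKO bleomycin mice 1 to 4. After bleomycin the lowest CKO mouse (49.8) stood above the highest control mouse (45.5). Trim25 had the smallest p of the set in 2 contrasts, CKO versus control after bleomycin (log2 fold change 1.43, SE 0.53, adjusted p = 0.218 by edgeR) and bleomycin versus PBS in control mice (-1.50, SE 0.53, adjusted p = 0.315 by edgeR). For Isg15 the CKO to control log2 fold change was 2.05 after PBS (SE 1.14) and 1.21 after bleomycin (SE 1.14), and for Usp18 it was 1.88 (SE 1.02) and 1.86 (SE 1.05).

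A group of 6 members are antiviral effectors of other kinds. Mx1 and Mx2 belong to a family of dynamin-like GTPases that trap viral particles. Whether the Mx transcripts give working proteins in these mice was not measured. Rsad2 (viperin) and its neighbour Cmpk2 make a chain-terminating nucleotide, and Bst2 (tetherin) holds virions at the cell surface. Eif2ak2 (PKR) halts translation upon sensing double-stranded RNA. Bst2 stood at 41.1, 74.3, 27.7 and 177 CPM in control PBS mice 1 to 4, at 17.6, 76.8, 31.9 and 37.3 CPM in control bleomycin mice 1 to 4, at 295, 48.3, 139, 70.1 and 600.2 CPM in CKO PBS mice 1 to 5 and at 140.5, 57.7, 109.5 and 132 CPM in CKO bleomycin mice 1 to 4. Bst2 was the most abundant member per kilobase of exon, with a mean of 135 CPM per kb, and Mx2 the least abundant, with 2.07. After PBS the CKO to control log2 fold changes were 3.69 for Mx1 (SE 1.63), 3.39 for Rsad2 (SE 1.37), 3.63 for Cmpk2 (SE 1.49) and 0.90 for Eif2ak2 (SE 0.41), each at an unadjusted p under 0.05. For Eif2ak2, CKO PBS mice ran from 56.3 to 152 CPM, above the range of 37.8 to 51.7 in control PBS mice. Rsad2 was also higher in CKO mice after bleomycin (3.16, SE 1.38, at an unadjusted p under 0.05), where control mice stood at 0.595, 12.8, 4.63 and 4.85 CPM and CKO mice at 84.1, 21.3, 57.0 and 43.1. In CKO mice Rsad2 and Cmpk2 were lower after bleomycin than after PBS (-3.01, SE 1.34, and -3.14, SE 1.45).

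IRG GTPases guard vacuoles that hold intracellular pathogens, and GBP GTPases coat and break such vacuoles open. The annotated spans of Igtp and Irgm2 overlap on the same strand of chromosome 11 (58199556 to 58222782), and the GBP genes are close paralogs in a cluster on chromosome 3 (142493978 to 142638008), so counts may have been shared among them. Irgm1 stood at 41.9, 40.3, 27.8 and 127 CPM in control PBS mice 1 to 4, at 37.9, 66.6, 49.4 and 52.9 CPM in control bleomycin mice 1 to 4, at 476, 59.7, 61.5, 70.7 and 381 CPM in CKO PBS mice 1 to 5 and at 131, 68.7, 58.9 and 74.7 CPM in CKO bleomycin mice 1 to 4. Leaving aside CKO PBS mice 1 and 5 at 476 and 381, the other 15 libraries spanned 27.8 to 131 CPM. Gbp2 stood at 19.8, 30.7, 27.8 and 124 CPM in control PBS mice 1 to 4, at 23.2, 41.6, 24.0 and 21.7 CPM in control bleomycin mice 1 to 4, at 1609, 23.2, 46.5, 58.7 and 378 CPM in CKO PBS mice 1 to 5 and at 74.3, 32.1, 43.5 and 67.5 CPM in CKO bleomycin mice 1 to 4. Gbp5 was counted at 0.516, 3.91, 2.01 and 4.72 CPM in control PBS mice 1 to 4, at 0.369, 1.20, 0.534 and 0.678 CPM in control bleomycin mice 1 to 4, at 166, 0.774, 5.03, 1.78 and 43.9 CPM in CKO PBS mice 1 to 5 and at 3.42, 0.428, 4.14 and 1.77 CPM in CKO bleomycin mice 1 to 4. Both GBP genes had their highest value in CKO PBS mouse 1, with mouse 5 next, and the groups otherwise overlapped. Gbp5 had the smallest p of the set in CKO versus control mice after PBS (log2 fold change 3.96, SE 1.35) and in bleomycin versus PBS in CKO mice (-4.16, SE 1.36), both at an unadjusted p under 0.05. It was above 10 CPM in CKO PBS mice 1 and 5 alone and so passed the filter through the CKO PBS group, which makes these differences a description. Mx2 likewise passed only through CKO mice, with 3 libraries above 10 CPM (CKO PBS mice 1 and 5 and CKO bleomycin mouse 1).

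The other GBP and IRG genes gave the same picture in the PBS mice. Their CKO to control log2 fold changes were 3.06 for Gbp2 (SE 1.07), 3.24 for Gbp3 (SE 1.14), 1.87 for Gbp7 (SE 0.70), 1.83 for Irgm1 (SE 0.67), 1.72 for Irgm2 (SE 0.65), 2.10 for Igtp (SE 0.80) and 2.40 for Ifi47 (SE 0.88), each at an unadjusted p under 0.05. After bleomycin the 8 genes ran from 0.68 to 1.81, with no unadjusted p under 0.05. Within CKO mice Gbp2 (-2.96, SE 1.07), Gbp3 (-2.75, SE 1.11), Gbp7 (-1.66, SE 0.69) and Igtp (-1.78, SE 0.79) were lower after bleomycin than after PBS at an unadjusted p under 0.05, as was Ifit2 (-2.50, SE 1.15).

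The 6 remaining members have mixed roles. Rtp4 is a receptor-transporting protein that also limits viral replication, Parp14 an ADP-ribosyltransferase, Sp100 a component of nuclear bodies, Xaf1 a proapoptotic factor, and Ifi35 and Ifi44 are interferon-induced proteins. Rtp4 stood at 12.4, 37.5, 10.5 and 119 CPM in control PBS mice 1 to 4, at 2.79, 40.4, 5.78 and 8.01 CPM in control bleomycin mice 1 to 4, at 98.0, 20.4, 68.7, 47.6 and 224 CPM in CKO PBS mice 1 to 5 and at 96.0, 25.4, 75.3 and 69.7 CPM in CKO bleomycin mice 1 to 4. Rtp4 (2.23, SE 0.95), Parp14 (1.34, SE 0.61) and Sp100 (1.88, SE 0.76) were higher in CKO than in control mice after bleomycin, each at an unadjusted p under 0.05. After PBS Parp14 (1.42, SE 0.59) and Ifi44 (2.84, SE 1.09) were higher in CKO mice at that p. Ifi44 followed the set least, with 2.18 CPM in CKO PBS mouse 4 beside 24.9 in mouse 3, and it was the only member whose correlation with the fibroblast mean was above 0 (0.115).

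CKO PBS mice 1 and 5, the highest libraries, differed from each other by family. In mouse 5, all 39 members exceeded the highest of the other 15 libraries, and 24 did so in mouse 1. All 4 GBP genes were higher in mouse 1 than in mouse 5, by 4.26 times for Gbp2 (1609 against 378 CPM), 3.79 times for Gbp5, 2.66 times for Gbp3 and 1.42 times for Gbp7. The IRG genes were near equal, with mouse 1 to mouse 5 ratios from 0.989 for Ifi47 to 1.25 for Irgm1. All 25 genes of the transcription factor, sensor, Ifit, Oas, Isg15 and antiviral effector groups were higher in mouse 5. There the ratio of mouse 5 to mouse 1 was 36.0 for Mx1, 23.4 for Oasl1, 16.7 for Cmpk2, 14.4 for Ifit3b, 10.8 for Irf7 and 9.27 for Ifit3, and it was lowest for Irf9, at 1.43. With 1 library each these are differences between 2 cultures, and no test was made.

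Counts of interferon genes also differed between CKO PBS mice 1 and 5, with 1 library each. Any link to the members' levels was not tested. Ifnb1, the interferon beta gene, had 227 counts in CKO PBS mouse 5 and at most 16 in any other library (control PBS mouse 4), with 14 in CKO PBS mouse 1. Ifng, the interferon gamma gene, had 394 counts in CKO PBS mouse 1, 9 in CKO PBS mouse 5 and at most 12 in the rest. Both are low, at 2.85 and 4.87 CPM in their highest libraries, and below the filter of the test. The 13 numbered interferon alpha genes on the list, Ifnl2 and Ifnl3 had 0 counts in all 17 libraries, which allows up to 3 counts in each. Ifnab, Ifne and Ifnk had at most 3, 2 and 7 counts. Ifnz was counted in every library and did not peak in these 2 mice, with 18 counts in mouse 1 and 6 in mouse 5. It ran from 0.244 to 0.323 CPM in control bleomycin, 0.0913 to 0.410 in control PBS, 0.0559 to 0.222 in CKO PBS and 0.0833 to 0.174 in CKO bleomycin mice. Markers of T, B and NK lymphocytes, 9 in all, were at 11.7 CPM or less each. In CKO PBS mouse 5, 8 of the 9 exceeded the other 15 libraries in CPM, and in mouse 1 only Cd3e, Cd3g and Nkg7 did, while Cd8a and Ms4a1, for example, had 0 counts there. Their summed level was 10.8 CPM in mouse 1 and 49.2 in mouse 5, against 0.641 to 23.4 in the other 15 libraries. Of the 7 plasmacytoid dendritic cell markers, Klk1 had 0 counts in all libraries and Siglech at most 10, 2 exceeded the other 15 libraries in mouse 5 (Siglech and Ccr9, the latter with 339 counts) and none in mouse 1. The sum of the 7 was 26.0 CPM in mouse 1 and 49.4 in mouse 5, within the 14.4 to 114 of the rest. Of the 19 macrophage markers, 14 were higher in mouse 5, C1qa among them (587 counts in mouse 1 and 76257 in mouse 5), and 5 in mouse 1, among them Itgax (102805 and 37698). Their sum was 22598 CPM in mouse 1 and 44031 in mouse 5, also within the range of the other libraries (1227 to 46201). Of the 6 neutrophil markers, 3 were higher in mouse 1 and 3 in mouse 5. Their sum was 93.8 CPM in mouse 1 and 47.2 in mouse 5, against 3.08 to 45.4 in the other 15 libraries. The sums of the fibroblast, endothelial, epithelial and smooth muscle lists lay within the range of the other 15 in both mice. The part of these cells in the members' levels was not tested.

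**Figure D3:**
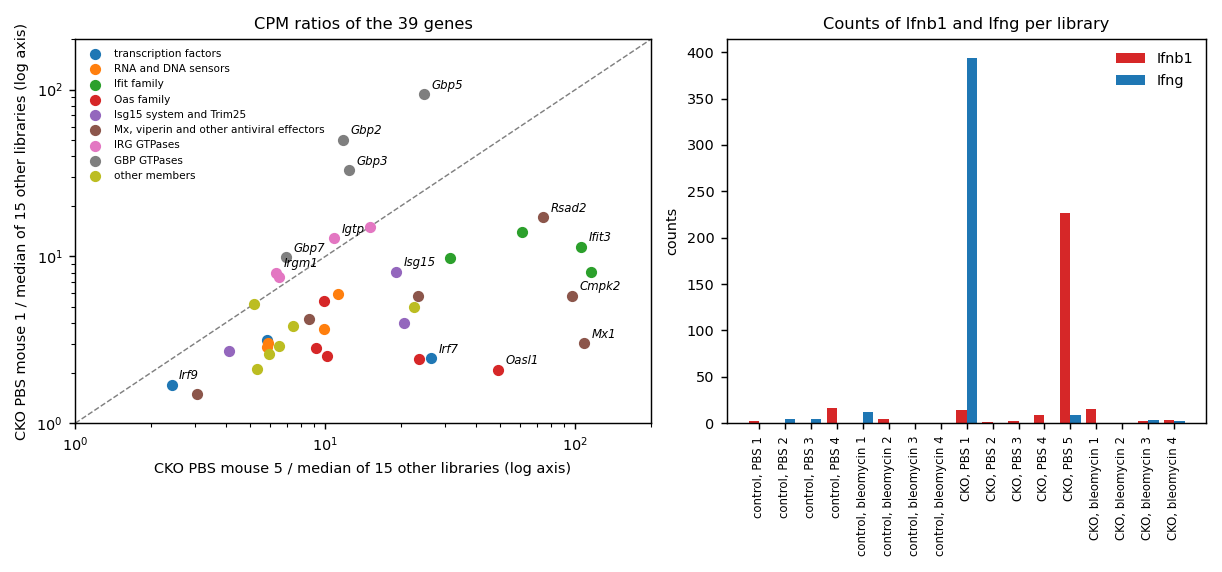
At left, each point is a member, placed by its CPM in CKO PBS mouse 5 (x) and mouse 1 (y), each divided by the median of the other 15 libraries, on log axes, with equal ratios on the dashed line. The 4 GBP genes lie above the line and the Ifit, Oas and Mx genes below it. At right, bars give counts per library of Ifnb1 (227 in CKO PBS mouse 5) and Ifng (394 in CKO PBS mouse 1).

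Among the 31 members with a promoter window, those highest in CKO PBS mouse 1 were Gbp2, Gbp3, Gbp5, Gbp7, Irgm1, Irgm2 and Igtp. All 7 held the response element core and 4 held TTCNNNGAA. Of the 24 highest in mouse 5, 12 held the response element core and 5 held TTCNNNGAA. The windows printed above for Igtp and Gbp7 belong to the former, and those of Isg15, Ifit3, Oas1a and Rsad2 to the latter. The grouping comes from the measured values, so the shares are descriptions.

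Of 52 other genes of the interferon pathway (ligands, receptors, kinases, adaptors and inhibitors), 28 passed the filter. The receptor subunit Ifnar1 had group means of 72.7, 82.9, 106 and 78.9 CPM in control PBS, control bleomycin, CKO PBS and CKO bleomycin mice, and none of the 5 receptor subunits tested reached an unadjusted p under 0.05 in any comparison. Ifnar1 and Ifnar2 had CKO to control log2 fold changes of 0.55 (SE 0.31) and 0.81 (SE 0.47) after PBS and of -0.07 (SE 0.32) and 0.11 (SE 0.49) after bleomycin. The values for Ifngr1, Ifngr2 and Il10rb after bleomycin were 0.19 (SE 0.24), 0.52 (SE 0.31) and 0.90 (SE 0.46). Socs1, an inhibitor induced by interferon gamma, was below the filter and had 36.1 CPM in CKO PBS mouse 1, 9.77 in mouse 5 and at most 2.97 elsewhere. Irf1, a factor strongly induced by interferon gamma, had 369.8 CPM in CKO PBS mouse 1, 147.6 in mouse 5 and at most 82.8 elsewhere. Socs3, another inhibitor, reached 222 CPM in CKO PBS mouse 1. It was lower after bleomycin than after PBS in CKO mice (-1.75, SE 0.79, at an unadjusted p under 0.05). Apart from mouse 1, however, the CKO PBS mice spanned 10.8 to 55.5 CPM of Socs3, and the CKO bleomycin mice spanned 12.1 to 33.8. In control mice Socs3 ran from 13.8 to 70.1 CPM after PBS and from 35.1 to 85.8 after bleomycin. Over the 28 genes, 25 were higher and 3 lower in CKO mice after PBS (median 0.37). Of those higher, 2 had an unadjusted p under 0.05, against 1.43% of all tested genes higher at that p. After bleomycin 23 were higher and 5 lower (median 0.47), with 8 of those higher at that p, against 11% of all genes. For bleomycin against PBS 25 of 28 were lower in control mice (median -0.49), with 5 at that p, against 7.98% of all genes lower. In CKO mice 24 were lower (median -0.21), with 1 at that p, against 0.716%. The pathway genes were not refitted without CKO PBS mice 1 and 5.

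A further 64 genes known to be induced by interferons but outside the set mostly gave the same directions in the 4 pairwise comparisons. They too were chosen with earlier results of these data known. Of the 59 that passed the filter, 57 were higher in CKO mice after PBS, against 46.4% of all tested genes (median 1.07). Among them 15 had an unadjusted p under 0.05, against 1.43% of all genes higher at that p. After bleomycin 54 were higher, against 50.7% (median 1.56), with 27 at that p, against 11%. For bleomycin against PBS, 55 were lower in control mice, against 55.5% of all genes (median -1.13), with 16 at that p, against 7.98%. In CKO mice 57 were lower, against 55.8% (median -0.73), with 6 at that p, against 0.716%. The interaction was above 0 for 38 and below 0 for 21 of them, with a median of 0.21, opposite in sign to that of the members. The most abundant were Lgals3bp, Ly6e, Slfn2 and Znfx1, whose CKO to control log2 fold changes after bleomycin were 1.72 (SE 0.59), 1.66 (SE 0.59), 1.76 (SE 0.64) and 1.73 (SE 0.72), each at an unadjusted p under 0.05. Their highest library was CKO PBS mouse 5, as it was for 48 of the 64, with 13 highest in mouse 1. This list was not refitted without those 2 mice. Among the 10 genes outside the set whose rank order over the 17 libraries was most like the members' mean were Lgals9, Phf11d, Psmb8, Adar, Dtx3l, Parp9, Trim30a, Gm12250 and Mndal (Spearman rho from 0.966 to 0.980). Of the 10, 7 were on the list of other interferon-induced genes.

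**Figure D4:**
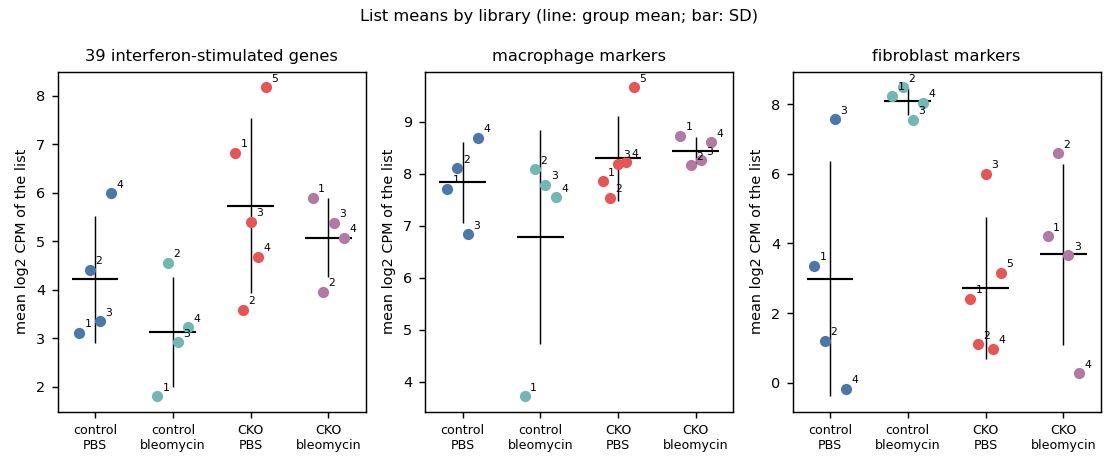
Points are libraries, numbered by mouse, with the group mean (line) and SD (bar), and the axis is the mean log2 CPM of a list. The mean of the 39 genes is highest in CKO PBS mice 5 and 1, control bleomycin mouse 1 is lowest on members and on macrophage markers, and fibroblast markers are uniformly high in the control bleomycin mice.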

How the data were processed

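RNA-seq was made from total RNA of 17 cultures, 1 per mouse. The authors removed ribosomal RNA, prepared strand-specific libraries, sequenced them as 75 bp pairs in 2 runs whose members the labels do not name, trimmed reads with cutadapt (1.18 in the submitters' processing notes), aligned them with HISAT2 2.1.0 to GRCm38 and estimated abundance with StringTie. The deposited values are whole-number counts per gene, derived from StringTie's coverage and not normalized. Total RNA without ribosomal RNA keeps noncoding transcripts, and counts of near-identical genes can be split between copies.

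Groups were taken from the sample labels. CPM were computed from the counts with TMM-scaled library sizes, and log2 CPM with a prior count of 2. Genes above 10 CPM (unscaled) in at least 2 libraries were tested with edgeR 4.0.16 (R 4.3.3), quasi-likelihood, 1 mean per group over all 17 libraries, with Benjamini-Hochberg adjustment over all genes tested. Standard errors were derived from each fold change and the test statistic. The procedure was tested on simulated counts in which genes varied independently and shared the same dispersion. The simulation held no difference in culture make-up, so it cannot show how make-up or joint movement of genes affects the p-values here. P-values set the difference between group means against the spread between mice, each mouse being 1 culture. That spread also holds any difference in culture make-up or in the unnamed sequencing run. The 5 comparisons were the 4 pairwise ones and the interaction.

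Alternatives were DESeq2 1.42.0, limma 3.58.1 (voom), other scalings, filters and prior counts, covariates for recorded sex, animal number series, macrophage and fibroblast marker means, fits of only the groups compared, and fits without each mouse or without the 3 libraries whose sex-linked genes went against the labels. The column run as a covariate and the fit without CKO PBS mice 1 and 5 were chosen after seeing the data.

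All 39 genes are named. Values in every library are given for Isg15, Stat2, Irf9 and Irf7, for the most abundant gene per kilobase of each role group and for the gene with the smallest p in each pairwise comparison, and fold changes for these and for genes with an unadjusted p under 0.05. The members, the gene lists and the marker lists were chosen with earlier results of these data known. Promoter sequences came from RefSeq (GRCm38.p6). Values of 1 further pathway gene are not reported here.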

Additional observations from a re-analysis of the deposited data

Results flagged for a closer look

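Of 160 sets of 4 or 5 mice tested, 1 per gene and group over the 39 genes and their mean, 5 had a mouse set apart from the others of its group by Dixon's criterion, and chance gives about 1 in 20. CKO bleomycin mouse 2 was low for Irf7, at a log2 CPM of 4.34 with the nearest mouse at 7.65, and for Dhx58, at 3.55 with the nearest at 5.45. Control bleomycin mouse 1 was low for Eif2ak2, at 3.43 with the nearest at 5.48. CKO PBS mouse 5 was high for Eif2ak2, at 7.24 with the nearest at 6.22. Control bleomycin mouse 2 was high for Gbp2, at 5.38 with the nearest at 4.59. CKO bleomycin mouse 2 and control bleomycin mouse 2 are among the 3 libraries whose sex-linked genes went against the labels.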

How the results depend on the processing

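No paired analysis was possible because no 2 groups compared share 2 animal numbers in the labels. Fits with the column run as a covariate, and fits without CKO PBS mice 1 and 5, were chosen after seeing the data. Genes called over the whole table numbered 0 in edgeR. DESeq2 called 166, 1, 399, 1 and 0 for bleomycin in controls, CKO after PBS, CKO after bleomycin, bleomycin in CKO mice and the interaction, and with the column run 231, 0, 387, 1 and 1.

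The number of members at an unadjusted p under 0.05 moved most. For bleomycin in controls (3) it was 6 in DESeq2, 13 in DESeq2 with the column run, 6 in edgeR with it, 1 with a 1 CPM filter, 7 without the 3 libraries of unmatched sex, 0 with the number series, 1 with sex, 0 with the macrophage and 0 with the fibroblast mean, and 5 without CKO PBS mice 1 and 5. For CKO after PBS (17) it was 1 in voom, 5 with only the groups compared and 0 without CKO PBS mice 1 and 5. For CKO after bleomycin (11) it was 29 with only the groups compared, 0 with the number series, 0 with the macrophage and 0 with the fibroblast mean, 23 in DESeq2 with the column run and 20 without CKO PBS mice 1 and 5. For bleomycin in CKO mice (8) it was 13 in DESeq2, 0 in voom, 2 with only the groups compared, 0 without the 3 libraries, 5 with the number series, 5 with sex, 4 with the fibroblast mean, 5 with the column run and 0 without CKO PBS mice 1 and 5. For the interaction (0) it was 1 in DESeq2 with the column run and 2 without CKO PBS mice 1 and 5.

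The median log2 fold change moved by more than the pooled SD of the member mean between mice (1.36) without CKO PBS mice 1 and 5, to -0.059 for CKO after PBS, 0.47 for bleomycin in CKO mice and 1.62 for the interaction. Smaller moves still turned many members. For bleomycin in controls the median was -0.017 with the fibroblast mean (19 members higher, 20 lower), -0.25 with the macrophage mean (9 higher) and -0.48 with the number series (4 higher), and for the interaction it was -1.23, -0.99 and -0.88. Single genes were followed only where the report gives their values. Without CKO PBS mice 1 and 5 the CKO to control value after PBS was -0.13 for Irf9, -0.29 for Irf7, -0.19 for Ifit1, -0.32 for Ifit2, -0.092 for Isg15, -0.054 for Cmpk2, -0.037 for Irgm2, -0.16 for Igtp, -0.27 for Ifi47, -0.26 for Gbp2 and -0.16 for Gbp5. The value for bleomycin in CKO mice was 0.34 for Stat2, 0.42 for Irf9, 0.74 for Irf7, 0.94 for Ifit2, 0.27 for Isg15, 0.38 for Rsad2, 0.55 for Cmpk2, 0.48 for Igtp, 0.36 for Gbp2 and 0.48 for Gbp3. Elsewhere, for bleomycin in controls Stat2 was 0.20 and Oas1a 0.061 with the fibroblast mean, and Isg15 was 0.060 with the number series, 0.078 with the macrophage and 0.67 with the fibroblast mean. For CKO after bleomycin Isg15 was -0.046 with the macrophage mean, and for bleomycin in CKO mice Irf9 was 0.019 in voom.

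Without each mouse in turn, genes called ranged from 0 to 2, 0 to 0, 0 to 1, 0 to 0 and 0 to 0 in the same order, members at an unadjusted p under 0.05 from 1 to 12, 6 to 35, 0 to 20, 2 to 13 and 0 to 1, and medians from -1.79 to -0.18, 0.66 to 2.60, 1.30 to 2.14, -1.64 to -0.20 and -1.36 to 0.77. Members that turned numbered 12 higher for bleomycin in controls without control PBS mouse 4, and 13 higher for bleomycin in CKO mice and 3 lower for CKO after PBS without CKO PBS mouse 5. Among the genes followed singly, those that reversed were Isg15 for bleomycin in controls (0.34 without control PBS mouse 4), Irf7 for CKO after PBS (-0.16) and for bleomycin in CKO mice (0.59), both without CKO PBS mouse 5, and Irf9 for bleomycin in CKO mice (0.17 without CKO PBS mouse 5 and 0.02 without CKO bleomycin mouse 2). The range of single genes over these fits was -1.97 to 0.34 for Isg15 for bleomycin in controls, -0.16 to 3.46 for Irf7 for CKO after PBS, and -1.53 to 0.59 for Irf7 and -0.31 to 0.17 for Irf9 for bleomycin in CKO mice. The cause was not tested for any of these. All members passed the filter, but it asks for only 2 libraries, and some were low in the others. Gbp5 was above 10 CPM in 2 libraries and Mx2 in 3. Counting depth limits the interferon genes, at a few counts in most libraries.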
